A study of Mus musculus with 2 samples.

Results

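The mammary basal and stem cell regulators are 10 genes that have been tied to basal identity or stem cell activity in the mouse mammary gland, namely Procr, Bcl11b, Trp63, Sox9, Sox10, Snai2, Id4, Tspan8, Tbx3 and Bcl11a. They were taken by gene symbol from the 49492 genes of the count table, by a rule that used names only. The members were, however, chosen with earlier results of these data known. The RNA came from colonies/organoids grown for 10 days in 3D from FACS-sorted basal cells of adult female wild type (WT) mice. The control library had no added cytokine, and the TNF-α library came from cells given recombinant mouse TNF-α at 10 ng/mL. Both cultures shared a matrix gel and a medium with EGF and ITS. Basal cells were gated as lineage-negative cells with CD24 and high CD29, which removes most leukocytes, endothelium and red cells before plating, although the harvested colonies can hold the luminal progeny of the plated cells. How many mice were pooled was not given in the sources used here.

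The mammary epithelium has an outer basal layer, which holds contractile myoepithelial cells and the stem cells that can regenerate a gland on transplantation, and an inner luminal layer. Transcription factors keep these states apart: p63 and SNAI2 belong to the basal programme, SOX9 and SOX10 to stem and progenitor cells of both layers, and factors such as TBX3 and BCL11A also act in luminal cells. Surface proteins such as PROCR and TSPAN8 were put to use because they allow rare basal cells to be sorted.

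Library totals were 44462275 counts for control and 53487087 for TNF-α, and the TNF-α library was set at 1.197 times the control library by the TMM method, a scaling that centres the ratios of most genes on no change. The table gives read counts per gene as deposited by the authors, with no normalization. With 1 library per condition, no difference below has a replicate check, and no p-value is given. Each log2 ratio is that of TNF-α to control CPM (counts scaled to library size) with a prior count of 2, followed by a 95% interval obtained by converting exact (Clopper-Pearson) binomial bounds on the TNF-α share of a gene's reads. Such intervals cover counting error only, because 1 library per condition gives no spread between cultures. They also treat each count as a separate molecule, which amplified reads need not be. The control library held 2172 genes with 2 counts but 618 with 1 count, so pairs of read ends may have been counted singly, and intervals from counts divided by 2 are given where they alter the reading. Levels are compared between genes only in TPM, which divides by exon length. Fewer cells of a type and less RNA per cell cannot be told apart in bulk RNA.

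The basal label was checked against keratins first. Krt14, a basal keratin, was at 8276 TPM without and 7574 TPM with TNF-α, and Krt5, its partner, was at 3164 and 3435 TPM. The luminal keratin Krt8 was at 1896 TPM in the control library and 1715 TPM with TNF-α, and Krt18 was at 1269 and 1010 TPM. Basal keratins therefore led in both libraries, but luminal keratins were also abundant, so every value below is an average over colonies that expressed both sets. Keratin RNA does not give the shares of cells. By flow cytometry, the paper found mostly luminal cells in the control colonies of its co-culture experiment. It also reported larger shares of basal and Procr-positive basal cells with TNF-α.

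Promoter sequence was matched for 5 of the 10 genes in RefSeq (GRCm38.p6). The sequence upstream of 3 of them is shown, because Id4 had the highest ratio of the 10 genes, Tspan8 was the most abundant of the 3 genes with the lowest ratios, and Procr marks a multipotent stem cell population. Capitals mark the only motif matches found. Positions are on the plus strand of GRCm38, with Procr at chr2:155750967-155751116 (the 150 bases before its deposited start), Tspan8 at chr10:115817034-115817283 and Id4 at chr13:48260866-48261115.
Procr: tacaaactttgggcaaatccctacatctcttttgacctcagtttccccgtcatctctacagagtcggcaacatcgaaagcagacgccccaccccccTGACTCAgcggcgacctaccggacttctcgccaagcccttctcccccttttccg
Tspan8: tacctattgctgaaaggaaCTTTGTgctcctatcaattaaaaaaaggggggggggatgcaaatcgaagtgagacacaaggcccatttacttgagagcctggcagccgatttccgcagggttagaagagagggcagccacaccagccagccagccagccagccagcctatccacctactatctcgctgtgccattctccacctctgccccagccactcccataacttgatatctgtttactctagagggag
Id4: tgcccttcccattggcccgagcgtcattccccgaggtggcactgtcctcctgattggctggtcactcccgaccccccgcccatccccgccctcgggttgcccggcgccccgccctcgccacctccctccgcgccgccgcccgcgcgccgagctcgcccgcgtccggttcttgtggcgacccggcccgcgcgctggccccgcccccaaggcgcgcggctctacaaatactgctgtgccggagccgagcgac
The search covered the 250 bases before each RefSeq start. That start lies inside the deposited gene by 100 bases for Procr, 188 for Bcl11b and 2639 for Bcl11a. For Bcl11a, 0 of the 250 bases searched lie before the deposited start, and for Id4 the RefSeq start itself lies before it. In the GENCODE annotation Tspan8 starts at 115816832, so the stretch shown for it lies inside that gene model. The AP-1 motif TGANTCA occurred in Procr, 154 to 148 bases before its RefSeq start, and in 6.73% of 32536 promoters. The SOX motif ACAAAG occurred on the minus strand in Tspan8, 231 to 226 bases before the start, and in 16.5% of promoters. None of the 5 matched promoters held the NF-κB consensus (3.92% of promoters), the shorter form GGANTTCC (4.0%), the E-box CAGGTG that SNAI proteins bind (17.3%), the T-box motif GGTGTGA (3.33%) or the p63 motif (7.12%). Both strands were searched, the NF-κB forms can overlap, and a match is a description of letters, not of binding. The Id4 promoter was 75.6% G and C, against a median of 52.4% over all promoters.

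The 10 genes did not move as a block. Id4 was 2.01-fold higher with TNF-α, and Tbx3, Bcl11a and Tspan8 were 1.85-fold, 1.81-fold and 1.70-fold lower. Sox10, Sox9 and Snai2 were modestly lower, Trp63 was nearly the same in both libraries, and Bcl11b and Procr were modestly higher. The log2 ratio was above 0 for 4 genes and below 0 for 6, with a median of -0.38, while the median of all 20771 genes with at least 10 counts was 0.0038. All 10 genes had at least 200 counts, from 226 for Procr to 20729 for Trp63 summed over both libraries, so none was lost to the filter on low counts.

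At a fold of 2, 1 of the 10 genes was called higher and 0 lower, while 8.56% of the 20771 compared genes were higher and 6.62% lower. Among the 13609 genes with at least 200 counts, which are the fairer background for these genes, 4.01% were higher and 2.87% lower by 2-fold. At a fold of 1.5, 1 of the 10 genes was higher and 3 were lower, against 9.13% higher and 7.48% lower of the 13609 genes. Of those genes, 90% lay between -0.74 and 0.88 on the log2 scale, and Id4, Tspan8, Tbx3 and Bcl11a lay outside that range.

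**Figure D1:**
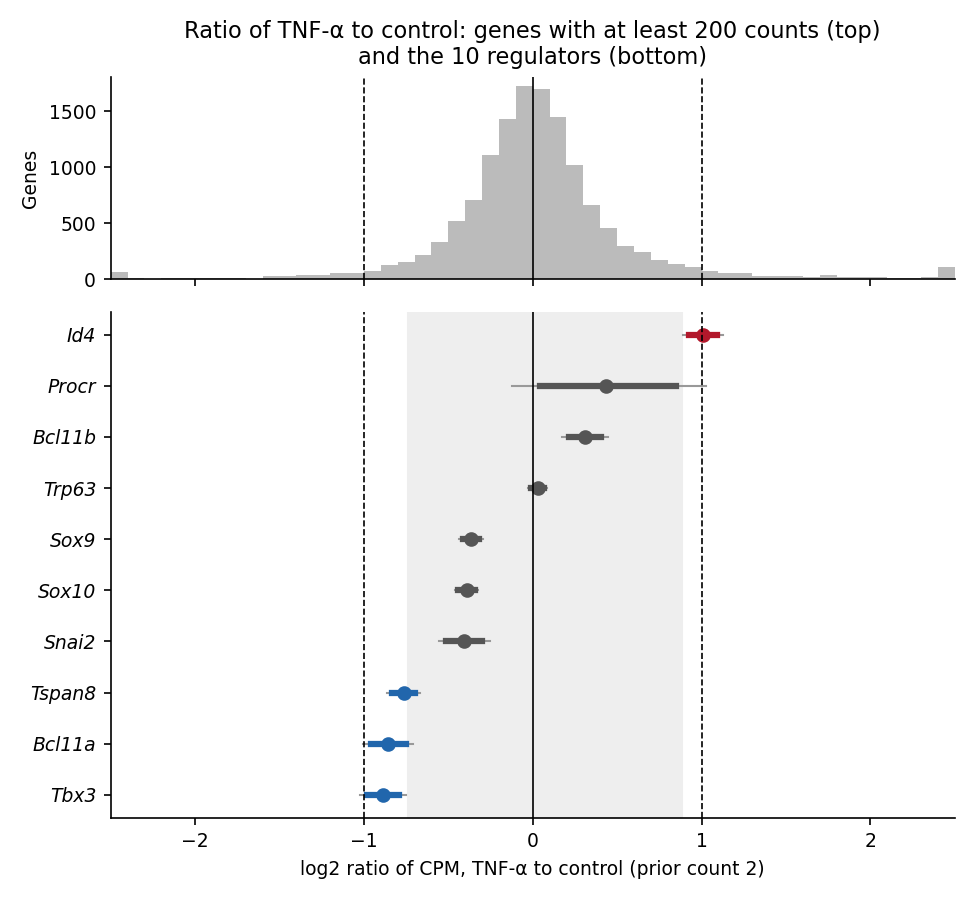
Upper panel, number of genes with at least 200 counts along the log2 scale of TNF-α over control CPM, with values beyond the axis gathered in the end bins; lower panel, the log2 ratio of each of the 10 genes with its 95% interval for counting error (thick) and the interval from counts divided by 2 (thin), over a grey band from the 5th to the 95th percentile of the genes above. Id4 at 1.01 lies on the dashed 2-fold line, and Tspan8, Tbx3 and Bcl11a, between -0.76 and -0.88, lie below the band.

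Procr encodes the protein C receptor, a transmembrane protein that binds protein C on endothelium and marks a multipotent mammary stem cell population in the basal layer. It had 86 counts without and 140 with TNF-α, or 1.93 CPM (95% Poisson interval 1.54 to 2.38) and 2.62 CPM (2.21 to 3.10). Procr was thus slightly higher with TNF-α, with counting intervals that overlapped. The log2 ratio was 0.44, with an interval of 0.046 to 0.85, and with counts divided by 2 the interval of -0.12 to 1.03 held 0. Procr was by far the most thinly counted of the 10 genes, and its ratio exceeded that of 86.8% of the genes with at least 200 counts.

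Bcl11b encodes a zinc finger repressor, better known from T cell commitment, that marks quiescent mammary stem cells. Its counts were 1506 without and 2235 with TNF-α, or 33.8 CPM (32.1 to 35.5) and 41.9 CPM (40.2 to 43.7). Bcl11b was higher with TNF-α beyond its counting intervals, with a log2 ratio of 0.31 (0.21 to 0.40). In levels per length, Bcl11b was 4.38 times Procr without TNF-α and 3.997 times Procr with it, so this pair of stem cell markers stood in a like proportion, within the wide counting error of Procr.

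Tspan8 encodes a tetraspanin, one of a family of membrane proteins that gather other proteins into domains, and it marks quiescent stem cells among Lgr5-positive basal cells. Its counts were 4178 without and 2947 with TNF-α, or 93.7 CPM (90.9 to 96.6) and 55.2 CPM (53.3 to 57.3). Tspan8 was lower with TNF-α, with a log2 ratio of -0.76 (-0.83 to -0.69), and 4.72% of the genes with at least 200 counts had a lower ratio. The markers of quiescent cells therefore did not share a direction, since Bcl11b was higher and Tspan8 lower.

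Trp63 encodes p63, the transcription factor without which no mammary gland forms and which maintains basal keratin expression. It had 9329 counts without and 11400 with TNF-α, which after scaling was 209 CPM (205 to 214) and 214 CPM (210 to 218). These values overlapped, the log2 ratio was 0.03 (-0.010 to 0.069), and 53.9% of the genes with at least 200 counts had a lower ratio. Trp63 was the most deeply counted of the 10 genes, and its interval was the narrowest. Counts per gene do not separate the long TA from the short ΔN forms of p63.

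Snai2 encodes SLUG, a zinc finger repressor of epithelial genes that belongs to the basal programme and, together with SOX9, can give stem cell activity to luminal cells. Snai2 had 1532 counts in the control library and 1385 with TNF-α, or 34.4 CPM (32.7 to 36.1) and 26.0 CPM (24.6 to 27.4). It was lower with TNF-α beyond the counting intervals, with a log2 ratio of -0.40 (-0.51 to -0.30). Sox9 encodes a high mobility group factor of progenitor cells. Sox9 had 6954 counts without and 6465 with TNF-α, or 156 CPM (152 to 160) and 121 CPM (118 to 124), which gave a log2 ratio of -0.36 (-0.41 to -0.32). The reported partners were lower by like amounts, and the TPM of Sox9 over that of Snai2 was 2.23 without and 2.29 with TNF-α.

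Sox10 encodes the neural crest relative of SOX9, which marks mammary cells with stem and progenitor properties. It had 7235 counts without and 6603 with TNF-α, or 162 CPM (159 to 166) and 124 CPM (121 to 127). Sox10 was lower with TNF-α, with a log2 ratio of -0.39 (-0.44 to -0.34), close to that of Sox9, and the ratio of Sox10 to Sox9 TPM was 1.59 without and 1.56 with TNF-α. Between 13.3% and 15.1% of the genes with at least 200 counts had ratios below those of Snai2, Sox10 and Sox9, so the 3 lay within the usual range. Sox10 also marks Schwann cells and melanocyte precursors. Of the 16 compared genes of a list for those cells, 2 were higher (among them Ngfr) and 3 lower (Pou3f1, Cdh19 and S100b) by 2-fold, all thinly counted, and the summed level of that list was 174 CPM without and 147 CPM with TNF-α. Over all compared genes, 8.56% were higher and 6.62% lower by 2-fold. The growth factor receptor Erbb3, which epithelium also expresses, gave 4428 of the 7735 control counts of that list. Among its defining genes, Foxd3 and Tyr had 0 counts in both libraries.

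Id4 encodes a helix-loop-helix protein that lacks a DNA-binding domain, holds partner factors off DNA, and is found in basal stem cells of the mammary gland. It had 1705 counts without and 4105 with TNF-α, or 38.3 CPM (36.5 to 40.1) and 76.9 CPM (74.6 to 79.3). The counting intervals were far apart. The log2 ratio was 1.01 (0.93 to 1.09), or 0.89 to 1.12 with counts divided by 2, so the estimate lay on the 2-fold line and its interval held that line. A lower ratio was found for 96.0% of the genes with at least 200 counts. The call at 2-fold was lost under upper quartile scaling, at 0.998, and after a correction for GC content and length, at 0.93.

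Tbx3 encodes a T-box repressor needed to form the mammary placode, and in the adult gland it is expressed most in hormone-sensing luminal cells. It had 2248 counts without and 1457 with TNF-α, or 50.4 CPM (48.4 to 52.6) and 27.3 CPM (25.9 to 28.7). Tbx3 was lower with TNF-α beyond the counting intervals, with a log2 ratio of -0.88 (-0.98 to -0.79), the lowest of the 10, and 3.53% of the genes with at least 200 counts had a lower ratio. Bcl11a encodes a zinc finger factor of luminal progenitors and the closest relative of BCL11B. Bcl11a had 1901 counts without and 1257 with TNF-α, or 42.7 CPM (40.8 to 44.6) and 23.6 CPM (22.3 to 24.9), which gave a log2 ratio of -0.86 (-0.96 to -0.75). Tbx3 and Bcl11a thus had the lowest ratios of the 10, followed by Tspan8. Sox9 and Sox10, described above as factors of both layers, were at -0.36 and -0.39.

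**Figure D2:**
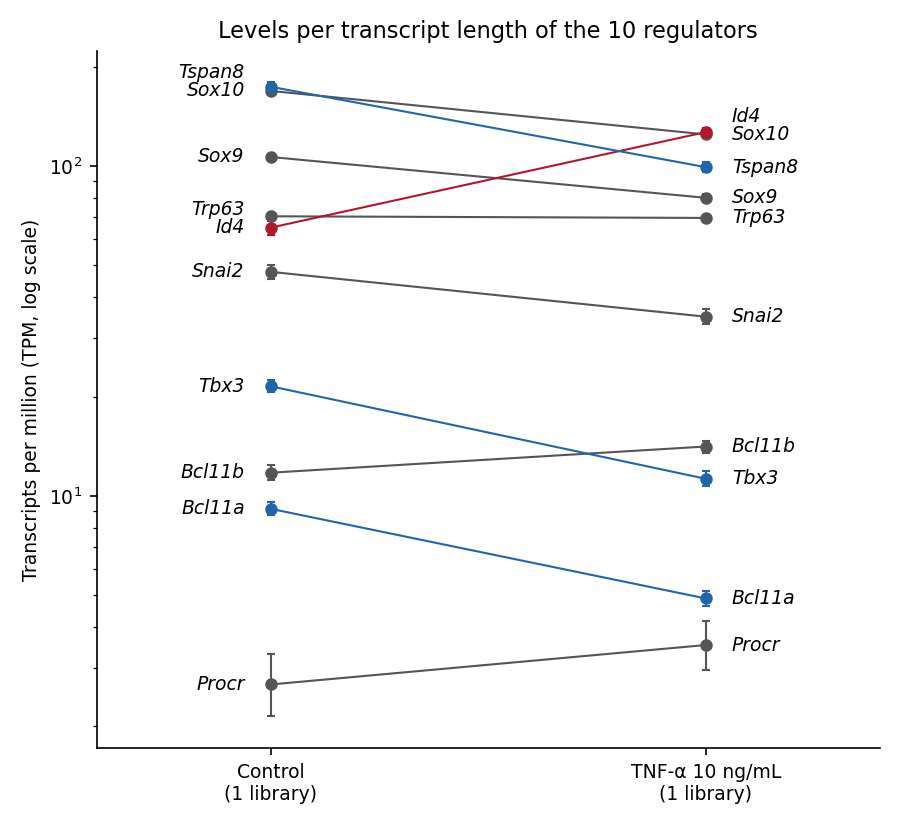
Level of each of the 10 genes in TPM (log axis) in the control library and the TNF-α library, with 95% Poisson intervals for counting error; red and blue lines mark genes higher or lower by 1.5-fold or more in CPM. Id4 goes from 65.0 to 127 TPM, while Tspan8 goes from 174 to 99.2 TPM.

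The order of the levels shifted at the top. In the control library Tspan8 led at 174 TPM with Sox10 at 169 TPM, and the intervals of this pair overlapped. Sox9 followed at 106 TPM, Trp63 at 70.4, Id4 at 65.0 and Snai2 at 47.8 TPM. The remaining genes lay lower. Tbx3 was at 21.5 TPM, Bcl11b at 11.8, Bcl11a at 9.14 and Procr at 2.68 TPM. In the TNF-α library Id4 led at 127 TPM with Sox10 at 125 TPM, again with overlapping intervals, and Tspan8 was the third at 99.2 TPM. Id4 had thus moved from the fifth place to the first. Sox9 was at 80.1 TPM, Trp63 at 69.6, Snai2 at 34.9 and Bcl11b at 14.1 TPM, ahead of Tbx3 at 11.3, Bcl11a at 4.89 and Procr at 3.53 TPM. All other neighbours in both orders were separated beyond counting error. The TPM ratio of Id4 to Tspan8 was 0.374 without and 1.28 with TNF-α, and that of Bcl11b to Bcl11a was 1.29 and 2.89. Summed over the 10 genes, the level was 677 TPM without and 569 TPM with TNF-α.

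The nearest relatives of the members, named here after their values were seen, seldom moved with them. The other Id genes stayed within counting error of no difference, with log2 ratios of -0.19 for Id1, -0.01 for Id2 and 0.12 for Id3. Tbx2 was at 36 and 43 counts, Snai1 at 24 and 30, and Snai3 at 0 and 2, all too few to read. Sox8, the third gene of the Sox9 and Sox10 group, had a log2 ratio of 0.02 (-0.13 to 0.18), whose interval lay above those of both members. Of the p63 relatives, Trp53 was at 0.46 (0.37 to 0.56) and Trp73 at 0.22 (-0.02 to 0.46). Bcl11a and Bcl11b, which are each other's closest relatives, differed in sign with intervals that did not overlap.

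Among tetraspanins, Tspan8 was neither alone nor typical. Tspan13 had the lowest ratio of all 34 compared relatives, at 1527 counts without and 414 with TNF-α and a log2 ratio of -2.14. Tspan1 had the highest among those with at least 200 counts, at 80 and 165 counts and 0.77 (0.39 to 1.19). Tspan15 was at -0.96, whereas Cd9, an abundant tetraspanin of most epithelia, was at 0.06 and Cd63, a tetraspanin of late endosomes, at 0.53. Of the coagulation and protease receptor genes set beside Procr, the protein C gene Proc, with 44 and 18 counts, was at -1.44. F3, which encodes tissue factor, was at -1.04 and the thrombin receptor gene F2r at -0.75. F2rl1, a related protease receptor gene, was at 0.50 and the thrombomodulin gene Thbd, with 12 and 28 counts, at 0.87. These genes thus differed in sign among themselves. In all, 0 of the 34 relatives were higher by 2-fold and 6 were lower (Tspan13, F3, Proc, Tbx1, Sox18 and Sox7), the last 4 with fewer than 100 counts in each library. Those lower were 17.6% of the relatives, while 8.56% of all compared genes were higher and 6.62% lower.

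**Figure D3:**
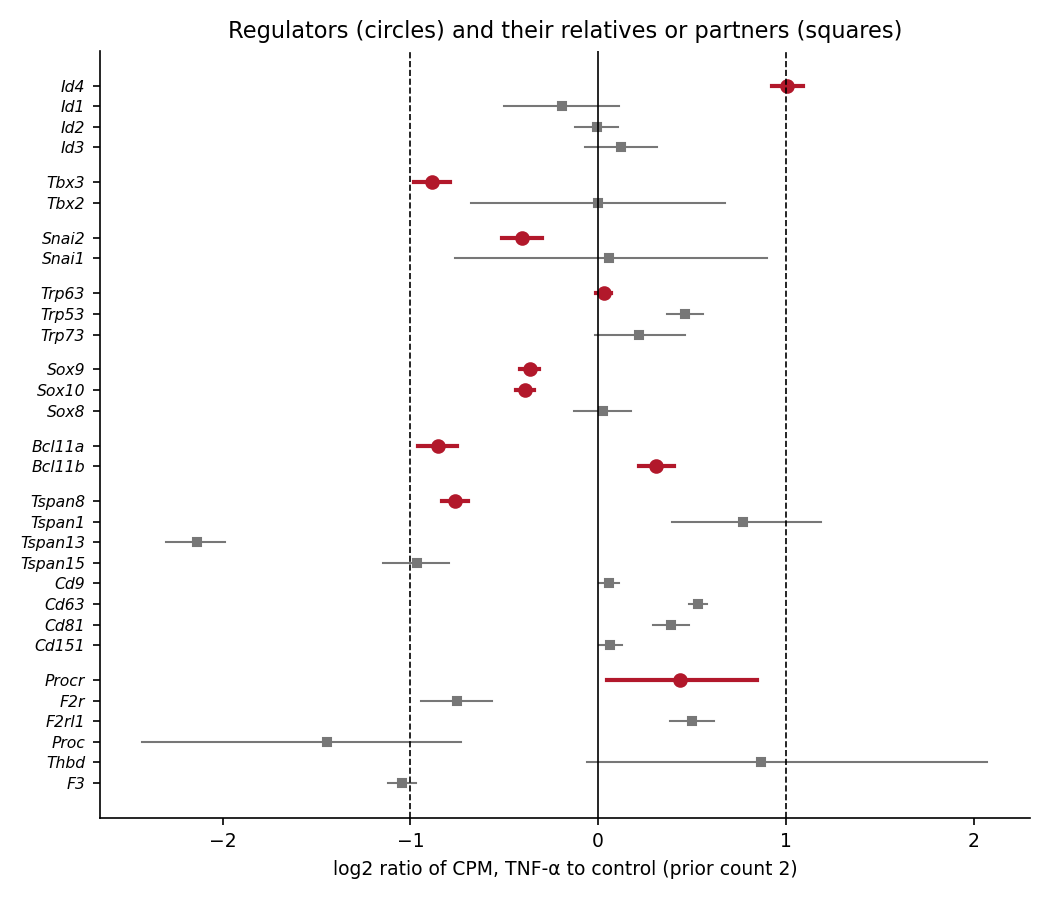
Log2 ratio of TNF-α to control CPM for each family with at least 10 counts, with members as red circles, relatives as grey squares and 95% intervals for counting error. Id4 at 1.01 stands apart from Id1, Id2 and Id3, and Tspan13 at -2.14 lies below Tspan8 at -0.76.

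Several members share sequence or position with other transcripts. Exons of A330033J07Rik on the opposite strand covered 171 bases of Id4, 10.3% of its exons, and that gene had 761 counts without and 1878 with TNF-α, a log2 ratio of 1.04 (0.92 to 1.17). Whether counting used the strand was not given in the sources used here, so reads in the shared bases cannot be told apart between Id4 and its antisense neighbour. Tbx3os1 covered 115 bases of Tbx3, 1.74% of its exons, and had 83 and 67 counts, far below the 2248 and 1457 counts of Tbx3 itself. Likewise 4930538E20Rik covered 316 bases of Bcl11a, 2.398% of its exons, and had 52 and 33 counts. The remaining overlapping genes lay within introns, namely Gm24928 and Gm27005 in Trp63 with 0 counts in both libraries and Gm12064 in Bcl11a with 2 and 0.

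Neighbouring genes gave a mixed picture. Beside Tspan8 (chr10:115817284-115849893), the nearest compared genes were Lgr5, 229504 bases away on the opposite strand with 3059 and 1593 counts and a log2 ratio of -1.20, and Ptprb, with 37 and 22 counts. Lgr5 encodes the R-spondin receptor that marks the basal cells in which TSPAN8 was described, and both genes were lower. Beside Tbx3 (chr5:119670669-119684724), the antisense transcript Tbx3os2, which lies 371 bases away, had 265 and 106 counts and a log2 ratio of -1.56 (-1.92 to -1.25), while Med13l on the other side was at -0.03. Beside Id4 (chr13:48261427-48264036), 4931429P17Rik had 1 and 9 counts and A330048O09Rik 4 and 10, too few to place.

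Beside Sox9 (chr11:112782224-112787760), BC006965 and 2610035D17Rik were at -0.29 and -0.38, near the -0.36 of Sox9. Beside Sox10 (chr15:79154913-79164490), Polr2f, an RNA polymerase subunit gene, was at 0.09 and Gm10863 at -0.31. Flanking Snai2 (chr16:14705852-14709395), Abcc1 was at 0.18 and Efcab1 at 1.19. The Sox9 flanks therefore lay on the same side of 0 as their member, and those of Snai2 did not.

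Flanking Procr (chr2:155751117-155755471), Edem2 was at -0.24 and Mmp24 at -0.62, opposite in sign to Procr. Flanking Bcl11b (chr12:107910403-108003602), Vrk1 was at 0.53 and Setd3 at -0.05. Beside Trp63 (chr16:25683763-25892102), Tprg had 40 and 20 counts and a log2 ratio of -1.17, and Gm4524 was at 0.53. Beside Bcl11a (chr11:24078056-24174123), Gm12063 had 8 and 2 counts and 5730522E02Rik 40 and 18. Sharing a region thus went with a shared sign at some members and not at others, and no test was made of this.

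Genes of the wider basal and stem cell programme were set beside the 10 members as lists of compared genes. Over all compared genes, the background for each list, 8.56% were higher and 6.62% lower by 2-fold. Among 16 basal keratins, adhesion and surface genes, 1 was higher by 2-fold (Ngfr, a neurotrophin receptor gene, 35 and 96 counts) and 1 lower (the keratin gene Krt15, -1.09), with a median log2 ratio of 0.02 against 0.0038 for all genes. The highest in that list with at least 200 counts was Cd44, a hyaluronan receptor gene, at 0.96. Among 27 p63 target genes, 0 were higher and 1 lower, the envoplakin gene Evpl at -1.001, with a median of -0.08. That list shares 6 genes with the basal list and includes Bcl11b. Both lists, like Trp63 itself, thus centred near the median of all genes.

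The 15 myoepithelial genes had a median of -0.23, with 0 higher and 1 lower by 2-fold, the oxytocin receptor gene Oxtr at 10762 and 5630 counts and a log2 ratio of -1.19. Actg2, a smooth muscle actin gene, was the highest with at least 200 counts, at 0.50. Their summed level was 6469 CPM without and 5218 CPM with TNF-α. Among 44 other reported stem or basal regulators the median was 0.12, with 4 higher and 2 lower. Those higher were Axin2, a WNT target with 84 and 351 counts and a log2 ratio of 1.78 (1.46 to 2.16), and Wnt10a, Sox11 and Twist2, each with fewer than 200 counts. Those lower were Lgr5 at -1.20 and Notch1, a receptor gene, at -1.15, so the WNT-linked genes Axin2 and Lgr5 differed in sign.

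Luminal genes were mixed, with more below 0 than above. Of 35 compared luminal genes, 10 had a ratio above 0, 3 were higher and 7 lower by 2-fold (8.57% and 20.0%, against 8.56% and 6.62% of all compared genes), the median was -0.29, and the summed level was 7331 CPM without and 5847 CPM with TNF-α. Among those with at least 200 counts, ratios ran from -2.37 for Areg, an estrogen-responsive growth factor gene, to 1.88 for the milk casein gene Csn3. The others higher were Cd14 (276 and 756 counts) and Tnfsf11 (2 and 16 counts), and the others lower included Mfge8, Prlr and Stat5a. The hormone receptor genes Pgr and Esr1, named after their values were seen, were at -1.54 (7228 and 2970 counts) and -1.48 (2547 and 1094 counts). Gata3 and Foxa1, luminal transcription factors also named afterwards, were at -0.77 and -0.97. Named afterwards as well, Epcam was at 0.29, Wnt4 at 0.45 and Cited1 at 0.56, among the 10 of 35 above 0. Tbx3 and Bcl11a, at -0.88 and -0.86, lay below the list median of -0.29 but within the range of the list. The part of luminal cell number in the ratios of Tbx3 and Bcl11a was not tested.

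Summed levels were lower for endothelial and leukocyte markers than for fibroblast genes. The 2-fold counts here stand beside 8.56% higher and 6.62% lower of all compared genes. Of 13 compared endothelial genes, which bear on Procr, 0 were higher and 3 lower by 2-fold (Cldn5, Sox18 and Robo4, each with under 20 counts in either library). Their summed level was 47.9 CPM without and 43.0 CPM with TNF-α, and those with at least 200 counts ran from -0.93 for Erg to 0.83 for Flt1. That sum was above the level of Procr itself, at 1.93 and 2.62 CPM. Pecam1 (117 and 114 counts) and Cdh5 (112 and 157), named after their values were seen, were counted about as deeply as Procr (86 and 140). Tie1, also named afterwards, had 12 and 14 counts. Of 11 compared leukocyte genes, which bear on Bcl11b, 0 were higher and 1 lower (C1qa, 8 and 3 counts). The sums were 18.4 and 17.6 CPM, and Lcp1 was at 0.23 and Lyz2 at -0.32. The T cell gene Cd3e and the B cell gene Ms4a1 had 0 counts in both libraries. Macrophage genes named after their values were seen were detected, with 114 and 109 counts for Lyz2, 92 and 81 for Csf1r and 83 and 75 for Cd68. Adgre1, another macrophage gene, had 0 and 2 counts. Of 14 compared fibroblast and adipocyte genes, 3 were higher (Dpt, Fbln1 and Dcn) and 2 lower (Lep and Pparg), the sums were 558 and 565 CPM, Dpt was the highest at 4.58 and Pdgfrb, at -0.93, the lowest with at least 200 counts, and Plin1 had 0 counts in both libraries. Collagen and receptor genes of fibroblasts, named after their values were seen, made up much of that sum, with 9207 and 12199 counts for Col1a2, 5062 and 6351 for Col1a1, 5628 and 4250 for Col3a1 and 2133 and 2519 for Pdgfra. Other fibroblast genes of that list were thinly counted, such as Lum (32 and 42 counts) and Fap (16 and 14). In the Schwann cell list, Mbp was highest at 0.34 and Mal lowest at -0.47 among genes with at least 200 counts. Their part in the members' ratios was not tested.

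**Figure D4:**
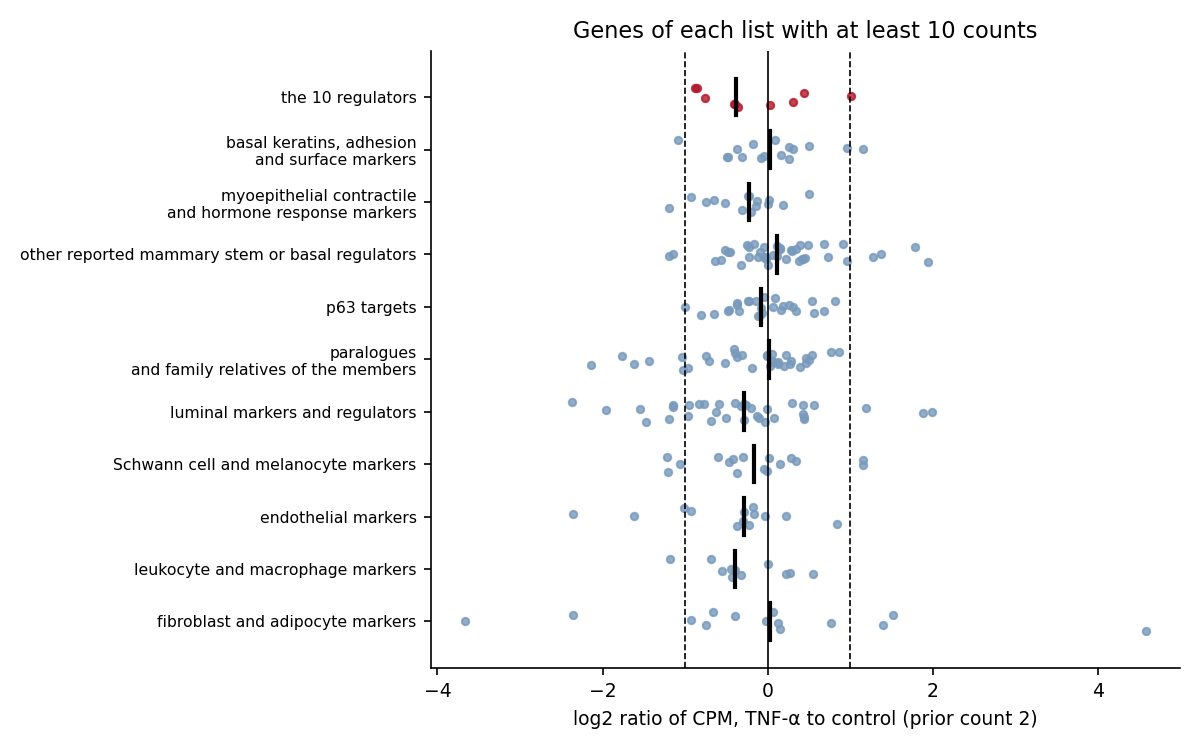
Log2 ratio of TNF-α to control CPM for each gene with at least 10 counts in the members and the 10 lists, with the median of each as a black bar. The medians are -0.38 for the members, -0.29 for luminal genes, 0.02 for basal keratins, adhesion and surface genes and 0.12 for other stem or basal regulators.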

How the data were processed

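RNA-seq reads of 2 libraries, 1 control and 1 TNF-α, were deposited by the authors as whole-number counts per gene, not normalized, with exon coordinates and length. The submitters' processing notes name GRCm38 (mm10). The aligner, counting tool, strand setting and annotation version are not given in the sources used here. Both value columns were mapped from their names, and 0 columns were left unmapped. Intervals from totals of 44462275 and 53487087 counts cover counting error only.

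TMM factors came from genes with at least 10 summed counts (edgeR 4.0.16, R 4.3.3), log2 ratios used a prior count of 2, and TPM used the deposited exon lengths. Intervals were computed with scipy 1.17.1, in Python 3.11.15 with numpy 2.4.6, pandas 2.3.3 and statsmodels 0.14.6, and figures with matplotlib 3.10.9. Calls meant a fold past 2, or 1.5 where stated, with no test. Ratios and calls were tested on simulated data. Alternatives were total counts, DESeq2 1.42.0 size factors, upper quartile scaling, prior counts of 0.5 and 5, other filters and folds, halved counts and a lowess correction for GC content and length (span 0.3).

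Members and lists were chosen with earlier results of these data known. Named genes were the members, 4 keratins, genes overlapping or nearest to a member, and each list's highest and lowest gene with at least 200 counts, and others are marked as chosen afterwards or fall in a count whose genes are listed. Some genes that the rule or a count would name are not reported here. Taz was left out of a list because the annotation uses this symbol for tafazzin. A planned comparison of protein sequences was not made, since no protein table was used here.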

Additional observations from a re-analysis of the deposited data

How the results depend on the processing

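Of 80 log2 ratios, those of the 10 genes under the 8 alternatives that could move them (filters on low counts could not), 76 stayed within the counting interval, 4 moved beyond it, all under the GC content and length correction (Trp63 0.07, Sox10 -0.23, Tspan8 -0.86 and Tbx3 -0.78), and 0 changed sign. Id4 ranged from 0.93 to 1.02, so the number of members higher by 2-fold was 0 under upper quartile scaling and 0 under that correction, which also put the members' median at -0.28, and at a fold of 1.5 the number lower was 3. Over all genes, 2679 were higher and 2996 lower with no filter, 836 and 658 with at least 1 CPM in a library, 546 and 390 with at least 200 counts, and 3210 and 2846 at a fold of 1.5. TMM over all genes, chosen after seeing the data, changed no call for the members. The GC values covered 96.6% of compared genes. No paired analysis was possible because there was a single library for control and for TNF-α, and for the same reason no replicate could be left out. Depth limits Procr most, with 86 and 140 counts.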
